A study of Drosophila melanogaster with 34 samples.

Results

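The 8 genes described here are the RNAs of the Drosophila cell death machinery's upper tier together with p53 and its partners: the death activators hid, rpr, grim and skl, their antagonist Diap1, the transcription factors p53 and Xrp1, and the TNF ligand gene egr. They were chosen by name, through their FlyBase identifiers, out of 17491 genes in the count table, with earlier results of these data known. All 8 passed the filter on low counts that left 9519 genes for testing. Poly(A) RNA of 34 single embryos was sequenced, one library per embryo, and every embryo was collected 30 minutes into nuclear cycle (NC) 14, the long cycle in which the blastoderm forms cells.

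Every embryo carried His2AvRFP, a red fluorescent histone used for staging. The CRY2-ZLD embryos also carried Zelda, the pioneer factor that opens chromatin for zygotic genome activation, joined to CRY2, a plant photoreceptor that self-associates in blue light and is used here to switch Zelda off. The embryos with His2AvRFP alone are called wild type. Both genotypes were kept under 488 nm light over NC10-14 (3 embryos each), NC10-12, NC13-14 or NC14 (4 embryos each), and 4 further CRY2-ZLD embryos were left unlit, without an unlit wild-type group beside them. Stocks were grown at 25°C. Libraries held 4382299 to 41210334 counted reads, with the next lowest at 13846445. An earlier analysis of these data judged 5 libraries to stand apart (wild type NC10-14 replicate 2, NC13-14 replicate 4 and NC14 replicate 3, and CRY2-ZLD NC10-12 replicates 3 and 4), and results that depend on them are given with and without them. A difference in a whole embryo can come from fewer cells of a type or from less RNA per cell, and these cannot be told apart here.

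Programmed cell death in the fly is held back by Diap1, a ubiquitin ligase that binds and inhibits the caspases Dronc and Drice. The proteins Hid, Reaper, Grim and Sickle carry a short amino-terminal motif that binds Diap1 and releases those caspases, so their transcription is a main point of control. The p53 protein, activated after DNA damage through the kinase encoded by lok, switches on several of these activators, Xrp1 was found as one of the genes it induces after irradiation, and Eiger, the protein of egr, can trigger death through JNK signalling. In normal development most of the patterned cell death of the embryo comes after the blastoderm stage.

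The activators lie on one strand of chromosome arm 3L. In the dm6 build, hid (FBgn0003997) spans 3L:18167745-18185641, grim (FBgn0015946) 3L:18302719-18304417, rpr (FBgn0011706) 3L:18397535-18398435 and skl (FBgn0036786) 3L:18438561-18439942, all on the minus strand. From the left end of hid to the right end of skl is 272198 bases, with gaps of 117077 bases between hid and grim, 93117 between grim and rpr, and 40125 between rpr and skl. There are 17 counted genes in that stretch. Of the other 13, lncRNA:CR45975 and asRNA:CR45974 lie wholly within the exon of grim, where the counting leaves reads unassigned. Their counts therefore cannot show whether they were silent. The rest of the 13 were almost silent in these embryos. No one of the 13 exceeded 36 counted reads over the 34 libraries, against 122668 reads for the 4 activators together. Diap1 (FBgn0260635) lies on the same arm at 3L:16038410-16051034. The genes of p53 (FBgn0039044, 3R:23049657-23054082) and Xrp1 (FBgn0261113, 3R:18914968-18926989) are on arm 3R, and egr (FBgn0033483) is on arm 2R.

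Per kilobase of exon and averaged over the 34 libraries, egr was the most abundant RNA of the 8, at 123 CPM per kb, where CPM are reads scaled to the size of each library. Next came hid at 27.8, Diap1 at 26.1 and rpr at 24.8 CPM per kb, then p53 at 11.3 and skl at 11.2. Xrp1 averaged 3.94 and grim 0.174 CPM per kb. The value for grim is a low estimate, because 75.9% of its exon bases are shared with the annotated antisense and long noncoding RNAs asRNA:CR45974 and lncRNA:CR45975, where the counting leaves reads unassigned. The share is 38.0% for p53 (with asRNA:CR46089) and 11% for Diap1 (with asRNA:CR45889), so those levels may be low too.

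**Figure D1:**
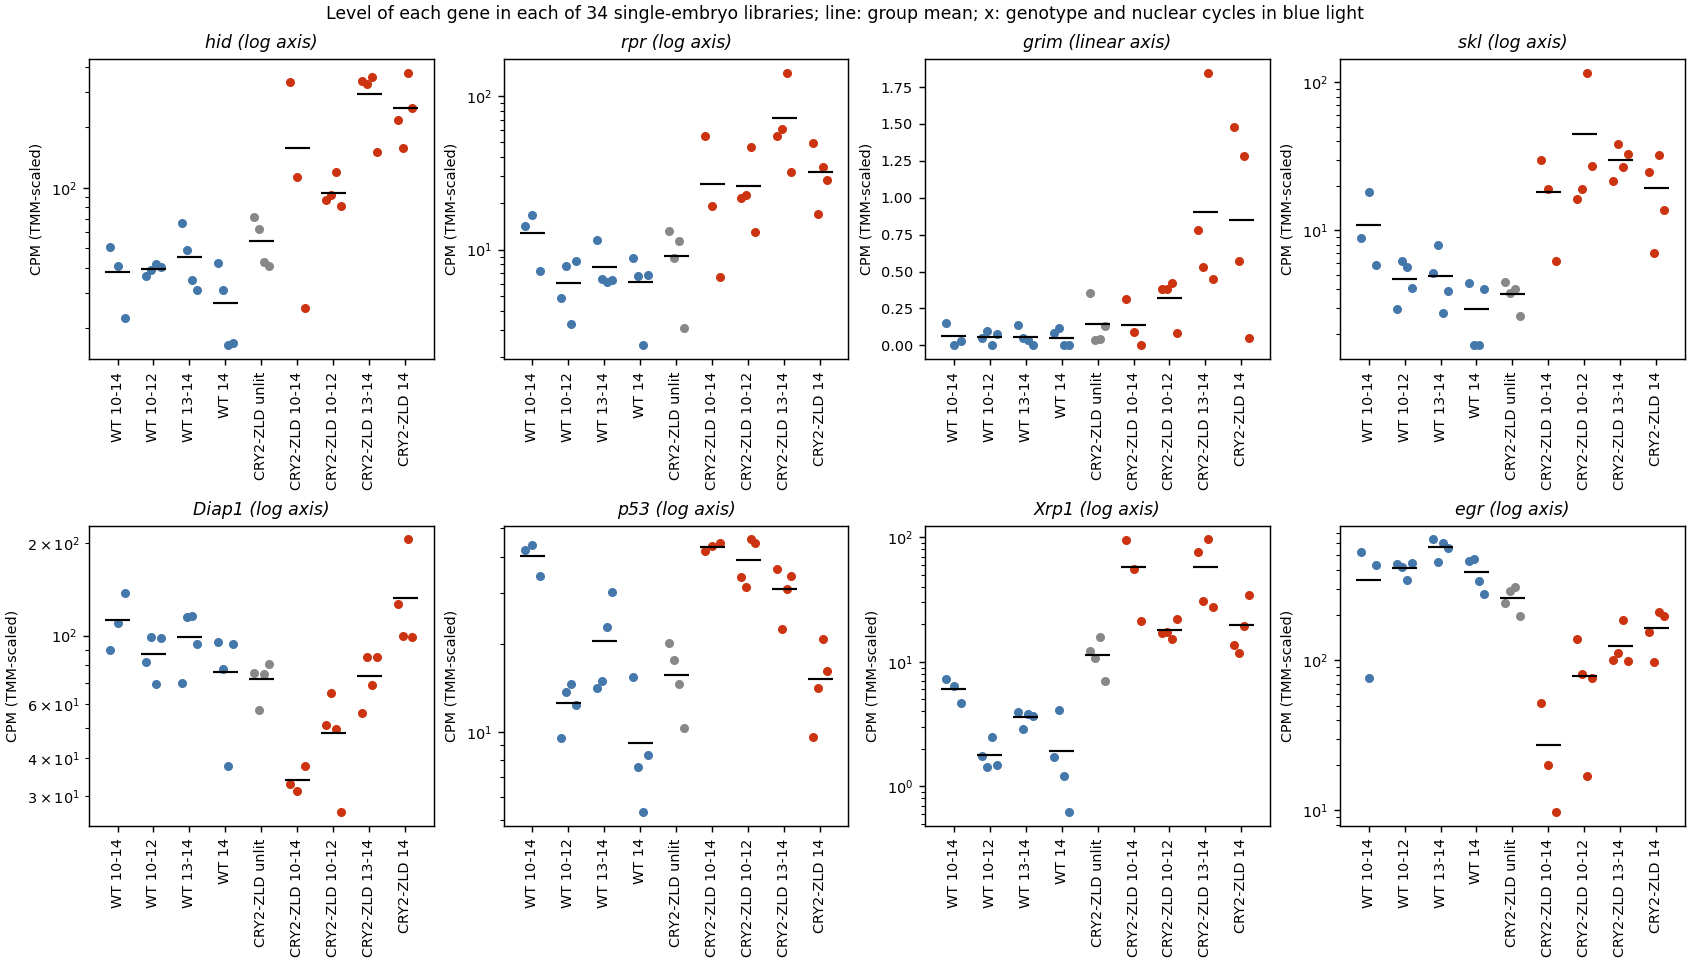
CPM of each of the 8 genes (vertical axis, logarithmic except for grim) in every library, by genotype and nuclear cycles in blue light; blue is wild type, grey unlit CRY2-ZLD, red lit CRY2-ZLD, and black lines are group means. Lit CRY2-ZLD embryos tend to be high for the activators and Xrp1 and low for egr, while p53 is high in NC10-14 embryos of both genotypes.

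Lit CRY2-ZLD embryos held more RNA of hid, rpr and skl than wild-type embryos under the same light in 3 of 4 light windows. With light over NC10-14 the genotypes overlapped for all 4 activators, and only hid passed the test. Counted over the windows, hid passed in 4, rpr and skl in 3 and grim in 2. The calls for hid in 2 windows were lost when certain single libraries were left out, as given below. In wild type the activators were low: group means ran from 26.6 to 45.2 CPM for hid, 6.09 to 12.8 for rpr and 2.93 to 10.9 for skl. Differences below are log2 CRY2-ZLD minus wild type ± SE, tested with edgeR's quasi-likelihood test and called at a Benjamini-Hochberg adjusted p under 0.05 over all 9519 genes.

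The gene hid, whose product also responds to survival signalling, stood at 339, 328, 356 and 151 CPM in the 4 CRY2-ZLD embryos lit over NC13-14, and at 66.4, 48.9, 34.8 and 30.9 CPM in the wild-type embryos of that window. All 4 CRY2-ZLD embryos were above all 4 wild-type embryos, and the fourth was the lowest of its group. The difference was 2.69 ± 0.46, or 6.45-fold (adjusted p = 6.41e-05). Under light in NC14 alone the CRY2-ZLD embryos held 216, 157, 374 and 248 CPM and the wild-type embryos 42.2, 30.9, 16.4 and 16.8. These groups were separate as well, with a difference of 3.22 ± 0.47 (9.34-fold, adjusted p = 9.72e-06).

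After light over NC10-12 only, hid was at 86.4, 91.9, 119 and 80.9 CPM in CRY2-ZLD and between 36.2 and 41.5 CPM in wild type. The groups did not overlap, and the difference of 1.27 ± 0.44 passed the test (2.41-fold, adjusted p = 0.0264). That call did not hold without CRY2-ZLD NC10-12 replicate 3 (1.139, adjusted p = 0.072), without any one of wild type replicates 1, 2 and 4 (highest adjusted p = 0.0639), or without the 5 libraries (1.17, adjusted p = 0.128). Light through NC10-14 gave 337, 113 and 25.3 CPM in CRY2-ZLD against 50.7, 40.8 and 22.5 in wild type. Here the third CRY2-ZLD embryo (replicate 4) lay within the wild-type range. The difference was 2.06 ± 0.52 (4.18-fold, adjusted p = 0.00588), and 0.90 with an adjusted p of 0.231 without CRY2-ZLD replicate 1.

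The RNA of rpr, a very short gene whose product is a potent killer when expressed, reached 54.7, 61.2, 142 and 32.1 CPM in CRY2-ZLD embryos lit over NC13-14. Wild-type embryos of that window had 11.6, 6.47, 6.15 and 6.33 CPM. The lowest CRY2-ZLD embryo was above the highest wild-type embryo, and the difference was 3.24 ± 0.58 (9.44-fold, adjusted p = 9.68e-05). With light over NC14 the values were 49.4, 17.2, 34.3 and 28.3 against 8.85, 6.71, 2.37 and 6.8 CPM, and with light over NC10-12 they were 21.6, 22.9, 46.5 and 12.9 against 4.82, 7.8, 3.29 and 8.45 CPM. Neither pair of groups overlapped, and rpr rose in both (2.38 ± 0.55, adjusted p = 0.00278, and 2.09 ± 0.55, adjusted p = 0.00388). In NC10-14 the CRY2-ZLD embryos spread from 54.9 through 19.4 to 6.64 CPM around wild-type values of 14.2, 16.9 and 7.22 CPM. The difference of 1.08 ± 0.61 did not pass the test there (adjusted p = 0.242).

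For skl, the nearest neighbour of rpr, CRY2-ZLD embryos lit over NC10-12 held 16.2, 19.1, 116 and 27.1 CPM, and wild-type embryos 2.91, 6.23, 5.6 and 4.05 CPM. Every CRY2-ZLD embryo was above every wild-type embryo, and replicate 3 was far above its group. The difference was 3.25 ± 0.58 (9.49-fold, adjusted p = 8.61e-05), and 2.15 without that embryo (adjusted p = 0.00166). Light over NC13-14 gave 21.7, 38, 26.5 and 32.9 CPM against 5.16, 7.9, 2.77 and 3.9 CPM. Light over NC14 gave 24.7, 7.03, 32.2 and 13.6 CPM against 4.38, 1.67, 1.67 and 4 CPM. The genotypes were separate in both windows, with differences of 2.58 ± 0.57 (adjusted p = 0.00137) and 2.72 ± 0.57 (adjusted p = 0.00103). Over NC10-14 the groups mingled, at 29.6, 18.8 and 6.2 CPM against 8.79, 18 and 5.79 CPM, with a difference of 0.75 ± 0.62 (adjusted p = 0.448).

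Only 250 reads of grim were counted in all, and 28 of the 34 libraries held any. CRY2-ZLD embryos lit over NC13-14 had 18, 14, 60 and 11 reads, equal to 0.781, 0.528, 1.85 and 0.449 CPM, while wild-type embryos had 3, 1, 1 and 0 reads. The groups were separate, and the fitted difference was 3.71 ± 1.17 (adjusted p = 0.0246). The call was lost without CRY2-ZLD NC13-14 replicate 3 (3.09, adjusted p = 0.0872) and without wild type replicate 2, 3 or 4 (highest adjusted p = 0.0866), and the difference was 4.46 without wild type replicate 1. With light over NC14 the counts were 34, 10, 29 and 1 against 3, 5, 0 and 0 reads. There CRY2-ZLD replicate 4 fell among the wild-type embryos, yet the group passed the test (3.76 ± 1.11, adjusted p = 0.0177). The value was 4.41 without wild type NC14 replicate 2, and 3.48 with an adjusted p of 0.0519 without the 5 libraries. In NC10-12 (2.35 ± 1.12, adjusted p = 0.107) and NC10-14 (1.137 ± 1.29, adjusted p = 0.594) grim did not pass.

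**Figure D2:**
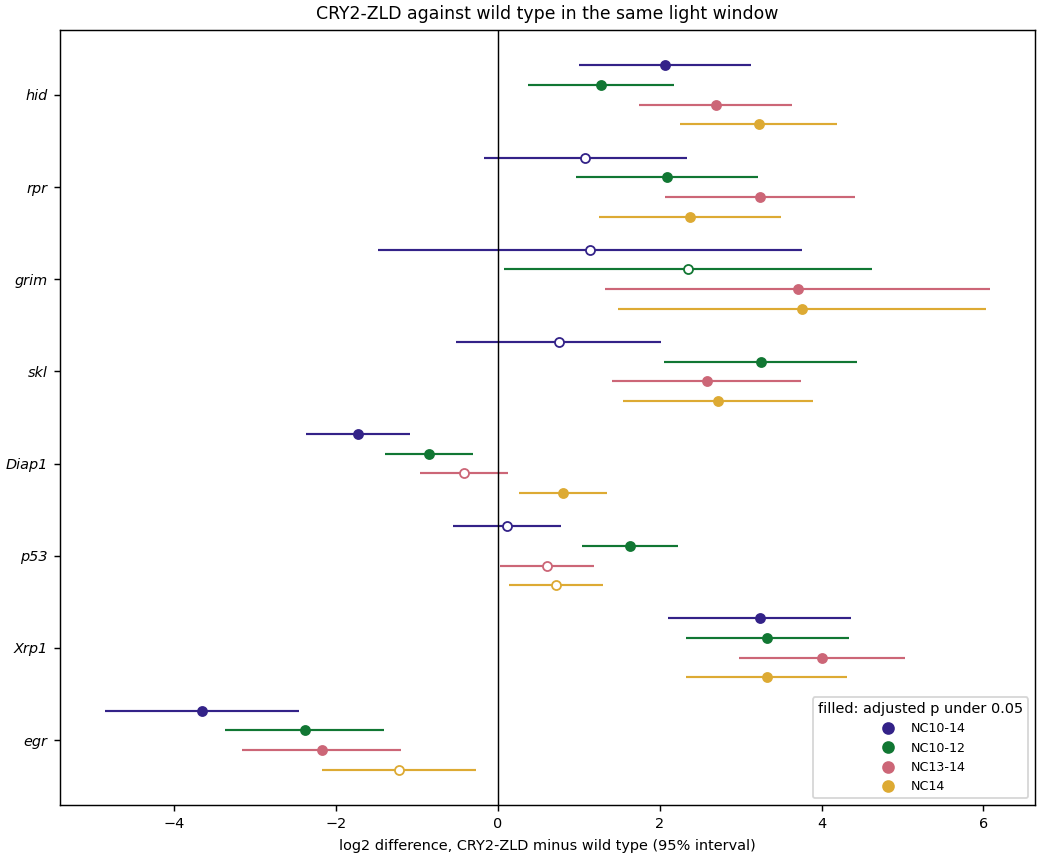
Log2 difference between CRY2-ZLD and wild type (horizontal axis, points with 95% intervals) for each gene in the 4 light windows, filled where the adjusted p was under 0.05. The points of hid, rpr, grim, skl, p53 and Xrp1 lie right of 0 in all 4 windows, and those of hid and Xrp1 are filled in all 4. For egr they lie left of 0, and Diap1 runs from -1.73 in NC10-14 to 0.80 in NC14.

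The inhibitor Diap1 moved in opposite directions between windows. In CRY2-ZLD embryos lit over NC10-14 it was at 32.9, 31.2 and 37.6 CPM, and in wild type at 90, 110 and 137 CPM. All 3 CRY2-ZLD embryos were below all wild-type embryos, by 1.73 ± 0.31 on the log2 scale (3.32-fold, adjusted p = 0.000162). Light over NC10-12 left 51.3, 65.2, 49.5 and 26.7 CPM against 82.2, 99.2, 69.7 and 98.3 CPM, again without overlap. This fall had a log2 difference of -0.86 ± 0.27 (adjusted p = 0.0128), which was -0.66 (adjusted p = 0.0668) without CRY2-ZLD NC10-12 replicate 4 and -0.60 (adjusted p = 0.123) without the 5 libraries. With ribosomal protein genes as the scale it was -0.61 (adjusted p = 0.193).

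After light over NC13-14 the Diap1 groups overlapped, with 56, 85.1, 68.9 and 85.2 CPM in CRY2-ZLD and 70.3, 115, 116 and 93.5 CPM in wild type. The difference of -0.42 ± 0.26 did not pass (adjusted p = 0.312). In NC14 the order turned: CRY2-ZLD embryos held 126, 99.6, 206 and 98.6 CPM and wild-type embryos 95.3, 77.8, 37.6 and 93.5 CPM. The groups were narrowly separate and the difference was 0.80 ± 0.27 (adjusted p = 0.0343). That call was lost without CRY2-ZLD NC14 replicate 3 (0.51, adjusted p = 0.216), wild type replicate 2 (0.81, adjusted p = 0.0541) or wild type replicate 3 (0.58, adjusted p = 0.145), and without the 5 libraries (0.59, adjusted p = 0.101).

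The change between windows was itself tested. The genotype effect on Diap1 in NC10-12 minus that in NC14 was -1.66 ± 0.38 (adjusted p = 0.0132), in a comparison in which 4.85% of all genes were called. It kept its direction and its call with each of the 34 libraries left out in turn, but was -1.18 (adjusted p = 0.124) without the 5 libraries and -1.76 (adjusted p = 0.0698) on the ribosomal protein scale. Diap1 was the single member of 8 called in that comparison.

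**Figure D3:**
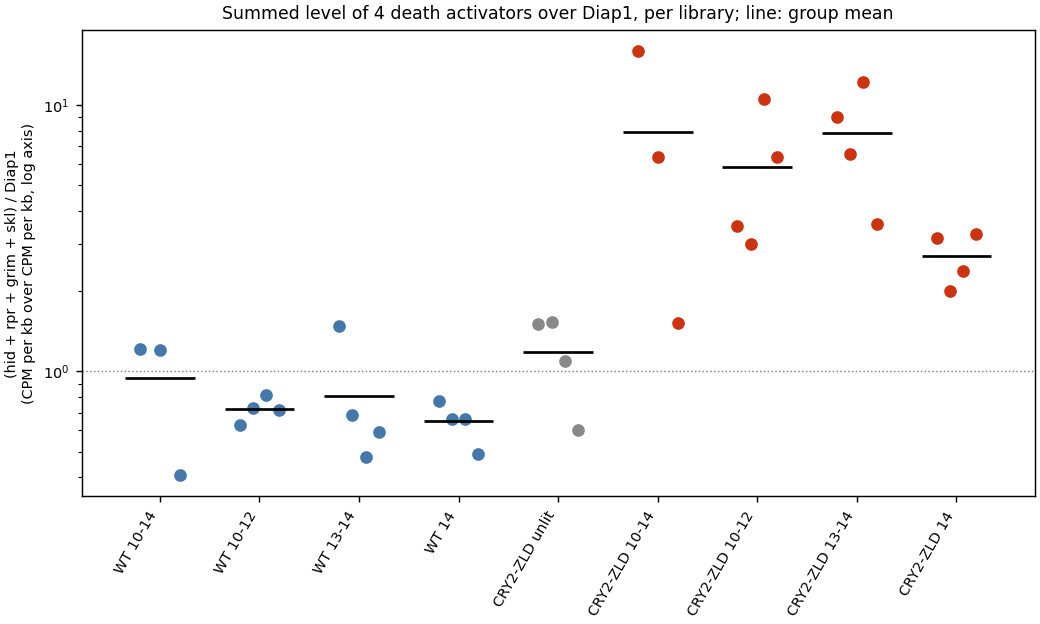
Summed level of hid, rpr, grim and skl divided by the level of Diap1 (vertical axis, logarithmic, both in CPM per kb) in each library, by genotype and nuclear cycles in blue light, with black lines at group means. All 15 lit CRY2-ZLD embryos lie above 1, and 1 of them, lit over NC10-14, is near the highest wild-type embryos.

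Set beside each other per kilobase, the activators together were less abundant than Diap1 in most wild-type embryos and more abundant in lit CRY2-ZLD embryos. The ratio of the summed activators to Diap1 was 0.809 ± 0.459 (SD, n = 4) in wild type lit over NC13-14 and 7.84 ± 3.65 (SD, n = 4) in CRY2-ZLD of that window. It was 0.648 ± 0.118 against 2.71 ± 0.618 in NC14 and 0.722 ± 0.0746 against 5.85 ± 3.44 in NC10-12 (SD, n = 4 each). For NC10-14 the wild-type embryos lay between 0.407 and 1.22 and the CRY2-ZLD embryos at 15.9, 6.39 and 1.52. Unlit CRY2-ZLD embryos ranged from 0.603 to 1.53. The ratio is given as a description and was not tested. In NC10-12 its rise held both a higher numerator and a lower Diap1, and in NC14 Diap1 was higher as well. In NC10-14 Diap1 was lower in every CRY2-ZLD embryo, while their numerators were 166, 63.3 and 18.2 CPM per kb. Those of wild type were 34.8, 41.9 and 17.8 CPM per kb, so the numerator of CRY2-ZLD replicate 4 lay within the wild-type range.

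The share of each activator in their summed level is given as a description, with no test. In CRY2-ZLD lit over NC14, hid made up 55.9% ± 9.1 and skl 11.7% ± 3.4 of the summed activator level (SD, n = 4). In CRY2-ZLD lit over NC10-12, hid made up 32.3% ± 9.6 and skl 32.4% ± 14.1 (SD, n = 4). The share of skl there was 50.7% in replicate 3 and 20.4%, 22.2% and 36.2% in the other 3 embryos. The share of rpr had group means from 32% to 45%.

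**Figure D4:**
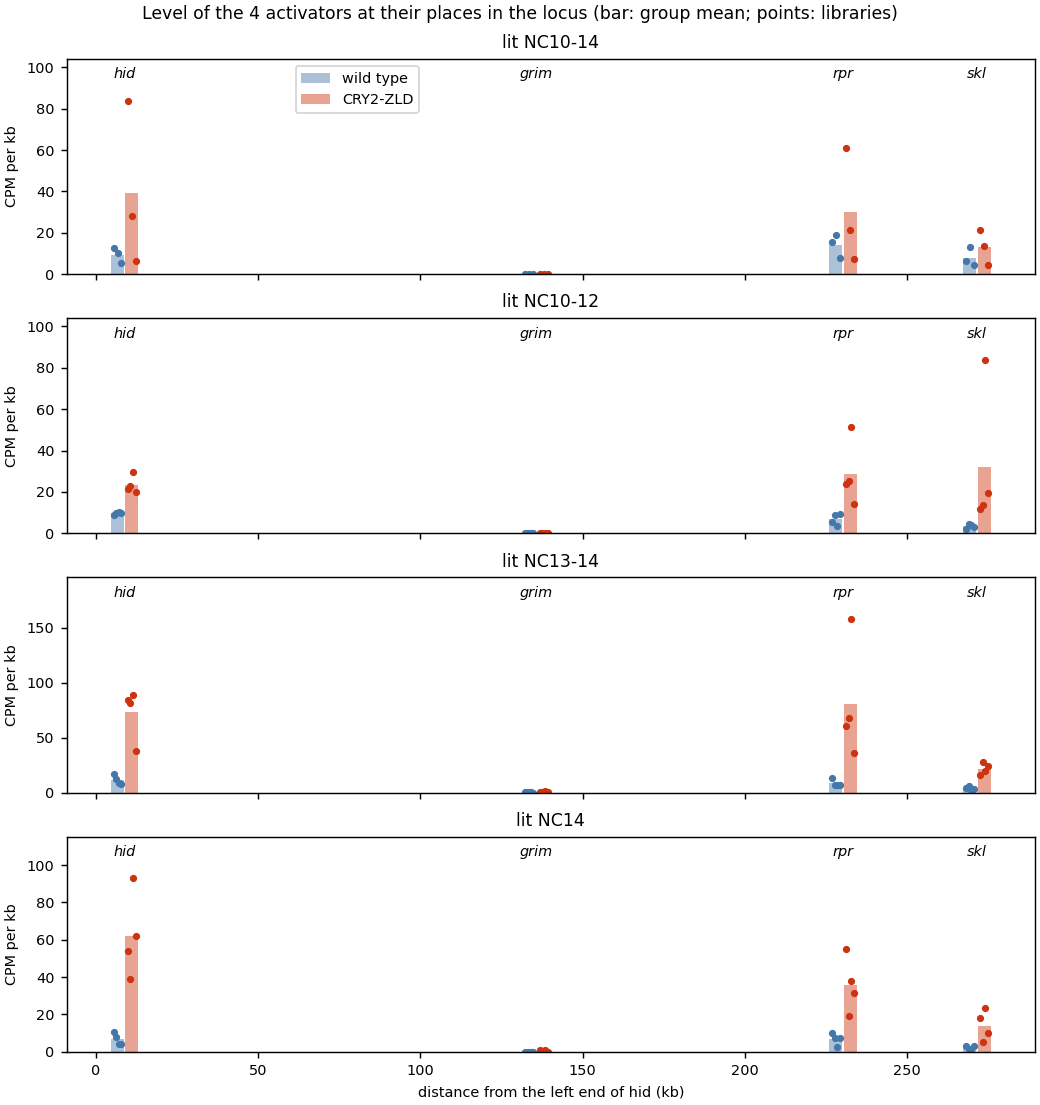
Level per kilobase (vertical axis, CPM per kb, bars for group means and points for libraries) of the 4 activators at their places along the locus (horizontal axis, distance from the left end of hid in kb), wild type in blue and CRY2-ZLD in red, one panel per light window. The bars of hid and rpr are the highest in CRY2-ZLD lit over NC13-14 and NC14. In CRY2-ZLD lit over NC10-12 the bar of skl is the highest, with 1 embryo far above the others, and grim stays near 0.

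The level of p53 was high after light over NC10-14 in both genotypes. It was 41.7, 43.5 and 44.5 CPM in CRY2-ZLD and 42.2, 43.7 and 34.2 CPM in wild type lit over NC10-14. These groups overlapped almost fully (0.11 ± 0.32, adjusted p = 0.858), with a 95% interval of -0.55 to 0.77. Wild-type embryos lit over NC13-14 held 14.1, 15, 23 and 30.2 CPM, all below those lit over NC10-14. That difference within wild type, 0.97 ± 0.30 (adjusted p = 0.0239, where 18.5% of all genes were called), was lost without any one of 4 libraries, among them wild type NC10-14 replicate 2 (0.85, adjusted p = 0.153). The other 3 were wild type NC10-14 replicate 1 (adjusted p = 0.0697) and NC13-14 replicates 1 (adjusted p = 0.0924) and 2 (adjusted p = 0.0797).

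Between genotypes p53 rose in 1 window. After light over NC10-12 it was at 34.1, 31.5, 45.9 and 44.4 CPM in CRY2-ZLD and at 9.55, 13.7, 14.6 and 12.3 CPM in wild type. The lowest CRY2-ZLD embryo was above the highest wild-type embryo by a wide margin, and the difference was 1.64 ± 0.29 (3.11-fold, adjusted p = 7.23e-05). In NC13-14 (22.6 to 36.2 against 14.1 to 30.2 CPM) and NC14 (9.59 to 20.9 against 5.32 to 15.5 CPM) the groups overlapped. The differences of 0.61 ± 0.28 (adjusted p = 0.152) and 0.72 ± 0.29 (adjusted p = 0.0799) did not pass, although the second did without CRY2-ZLD NC14 replicate 1 (0.92, adjusted p = 0.032) or wild type NC14 replicate 1 (1.10, adjusted p = 0.00689), and on the ribosomal protein scale (1.07, adjusted p = 0.0241).

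The genotype effect on p53 was smaller in NC10-14 than in NC10-12, by 1.52 ± 0.43 on the log2 scale (adjusted p = 0.0243, where 8.76% of all genes were called). This call was lost in 7 of the 34 fits that left out 1 library, with values from -1.61 to -1.37 and a highest adjusted p of 0.0894 without wild type NC10-14 replicate 2. The other 6 were each of CRY2-ZLD NC10-14 replicates 1, 2 and 4, CRY2-ZLD NC10-12 replicate 4, wild type NC10-14 replicate 1 and wild type NC10-12 replicate 1. It was -1.13 (adjusted p = 0.185) without the 5 libraries.

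The summed markers of RNAs loaded into the egg also had their highest group medians in the NC10-14 groups. The summed level of 9 maternal RNA markers was 3052 to 5319 CPM in CRY2-ZLD and 2678 to 3747 CPM in wild type lit over NC10-14, and 1407 to 3856 CPM in CRY2-ZLD lit over NC10-12. In the 6 other groups it lay between 1067 and 1799 CPM, with BicC at 0 in every library. Of the 8 markers tested, 4 were higher and 0 lower in wild type NC10-14 against NC13-14. Between genotypes 0, 3, 1 and 0 were higher and 1, 1, 1 and 1 lower in NC10-14, NC10-12, NC13-14 and NC14. The part of maternal RNA in the level of p53 was not tested.

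Xrp1, a bZIP transcription factor known for the removal of cells with ribosomal protein mutations in growing tissues, rose in 4 of 4 windows. It stood at 75.8, 31, 96.5 and 27.4 CPM in CRY2-ZLD and 3.99, 2.91, 3.79 and 3.65 CPM in wild type lit over NC13-14. No CRY2-ZLD embryo was near the wild-type range, and the difference of 4.01 ± 0.50 was 16.1-fold (adjusted p = 5.11e-07). In NC10-14 the values were 94.6, 56 and 21.5 against 7.22, 6.45 and 4.64 CPM, again separate, with a difference of 3.23 ± 0.55 (adjusted p = 7.49e-05).

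Xrp1 was at 17, 17.5, 15.3 and 22.2 CPM in CRY2-ZLD lit over NC10-12 against 1.77, 1.42, 2.5 and 1.49 CPM in wild type. After light over NC14 it was at 13.8, 11.8, 19.5 and 34.2 CPM against 1.72, 4.12, 1.22 and 0.623 CPM. Both windows showed a gap between the genotypes, with differences of 3.33 ± 0.49 (adjusted p = 7.43e-06) and 3.32 ± 0.49 (adjusted p = 9.50e-06). The second was 4.03 without wild type NC14 replicate 2. No call for Xrp1 between genotypes was lost when any one library was left out, and the highest adjusted p in those fits was 0.00172.

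The RNA of egr went the other way: it fell in 3 of 4 windows. Wild-type embryos lit over NC10-12 had 439, 417, 344 and 443 CPM and CRY2-ZLD embryos 139, 81.4, 17 and 76.4 CPM. The difference was -2.39 ± 0.48 (adjusted p = 0.000308), with no overlap. After light over NC13-14, wild type was at 640, 452, 607 and 563 CPM and CRY2-ZLD at 100, 113, 187 and 98.9 CPM. These groups were also far apart (-2.18 ± 0.48, adjusted p = 0.00125).

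In NC10-14 egr was at 52.1, 20.1 and 9.78 CPM in CRY2-ZLD, and at 527, 76.3 and 432 CPM in wild type. Wild type replicate 2 was the lowest wild-type embryo of all, yet above the CRY2-ZLD embryos. The difference was -3.66 ± 0.59 (12.6-fold lower, adjusted p = 3.08e-05), and -4.50 without CRY2-ZLD NC10-14 replicate 1. In NC14 egr held 155, 98.2, 211 and 198 CPM in CRY2-ZLD and 462, 470, 338 and 278 CPM in wild type. The groups did not overlap, but the difference of -1.23 ± 0.47 did not pass (adjusted p = 0.0665). It passed without CRY2-ZLD NC10-12 replicate 3 (adjusted p = 0.0325), without wild type NC10-14 replicate 2 (adjusted p = 0.0399) and without the 5 libraries (-1.29, adjusted p = 0.0137).

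Counted over the 8 genes, 4 were called in NC10-14 (2 higher, 2 lower), where 15.4% of all tested genes were called, 7.82% higher and 7.58% lower. In NC10-12 there were 7 (5 higher, 2 lower), beside 33.4% of all genes, 16.9% higher and 16.5% lower. In NC13-14 there were 6 (5 higher, 1 lower), beside 17.3%, with 8.32% higher and 8.94% lower. In NC14 there were 6, all higher, beside 17.4%, with 7.79% higher and 9.65% lower. The median log2 difference of the 8 genes was 0.92, 1.86, 2.64 and 2.55 in the order given, against 0.06, -0.01, 0.07 and -0.03 over all tested genes. The 8 genes were chosen with earlier results of these data known, so these counts and medians are descriptions and no test of enrichment. The 4 windows use different embryos of both genotypes.

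No member was called for a difference between the genotype effects of NC10-14 and NC13-14, or of NC13-14 and NC14, in edgeR, DESeq2 or limma-voom. At an unadjusted p under 0.05 there were 4 and 1 members, and the shares of all genes called were 0.998% and 0.168%. Among the differences between windows that missed the threshold, those with the smallest adjusted p were skl in NC10-14 minus NC10-12 (-2.499 ± 0.83, adjusted p = 0.056) and hid in NC10-12 minus NC14 (-1.95 ± 0.62, adjusted p = 0.0605).

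**Figure D5:**
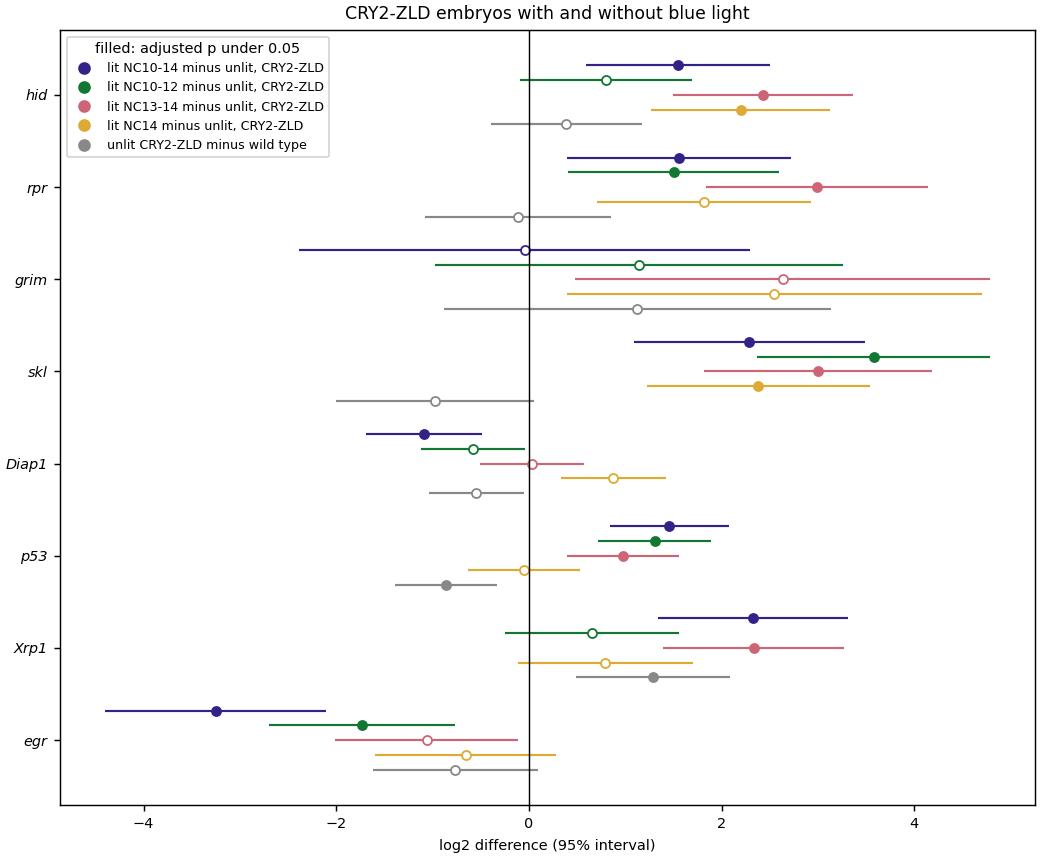
Log2 difference (horizontal axis, points with 95% intervals, filled where the adjusted p was under 0.05) between lit and unlit CRY2-ZLD embryos in the 4 windows, in colour, and between unlit CRY2-ZLD and wild type, in grey. The coloured points lie right of 0 in all 4 windows for hid, rpr, skl and Xrp1, and only those of skl are filled in all 4. The grey points are filled for p53, to the left, and Xrp1, to the right.

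Within CRY2-ZLD, comparison with the 4 unlit embryos sets light against no light on one genotype. These comparisons share the unlit embryos and are given side by side. By the sample indices in the column names, the NC10-14, NC13-14 and unlit libraries carry one series of index numbers, and the NC10-12 and the NC14 libraries each a series of their own. For NC10-12 and NC14 against unlit, light and index series therefore differ together and cannot be told apart, whereas both genotypes of a window share a series. The RNA of skl rose in 4 of 4 windows, from 4.48, 3.74, 4.01 and 2.62 CPM in unlit embryos to the lit values given above. The lowest lit embryo, at 6.2 CPM, exceeded the highest unlit one. Its log2 differences were 2.29 ± 0.59 in NC10-14 (adjusted p = 0.00253), 3.58 ± 0.59 in NC10-12 (adjusted p = 5.73e-05), 2.998 ± 0.58 in NC13-14 (adjusted p = 0.000548) and 2.38 ± 0.57 in NC14 (adjusted p = 0.0102). Without CRY2-ZLD NC10-12 replicate 3 the NC10-12 value was 2.48, and without CRY2-ZLD NC14 replicate 3 the NC14 value was 2.02 (adjusted p = 0.0587).

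Unlit embryos held 71.8, 62.1, 42.6 and 40.6 CPM of hid, below every embryo of the NC10-12, NC13-14 and NC14 groups. The rise of hid was 2.43 ± 0.46 in NC13-14 (adjusted p = 0.0004) and 2.197 ± 0.45 in NC14 (adjusted p = 0.00236), and it missed the threshold in NC10-12 (0.80 ± 0.44, adjusted p = 0.181). In NC10-14 it was 1.55 ± 0.47 (adjusted p = 0.00941), which became 0.32 (adjusted p = 0.627) without CRY2-ZLD NC10-14 replicate 1. For rpr, unlit embryos had 13.3, 8.78, 11.3 and 3.09 CPM, and lit NC13-14 embryos were higher by 2.99 ± 0.57 (adjusted p = 0.000422). The differences for rpr in the other 3 windows, 1.503 to 1.82, were near the threshold, with adjusted p from 0.0301 to 0.0551. Leaving out CRY2-ZLD NC10-14 replicate 1 took the NC10-14 value to 0.47 (adjusted p = 0.583), and leaving out CRY2-ZLD NC10-12 replicate 3 took the NC10-12 value to 1.06 (adjusted p = 0.18). Leaving out unlit replicate 4 took them to 1.28 (adjusted p = 0.0984) and 1.21 (adjusted p = 0.126), and unlit replicates 2 and 3 each ended at least 1 of these 2 calls as well.

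Unlit embryos had 12.2, 10.7, 15.8 and 6.98 CPM of Xrp1. Light over NC10-14 and NC13-14 was accompanied by rises of 2.33 ± 0.48 (adjusted p = 0.000277) and 2.33 ± 0.46 (adjusted p = 0.000703), the first being 1.73 without CRY2-ZLD NC10-14 replicate 1. In NC10-12 (0.65 ± 0.44, adjusted p = 0.295) and NC14 (0.79 ± 0.44, adjusted p = 0.44) lit and unlit embryos overlapped. For p53, unlit embryos held 20.2, 17.7, 14.7 and 10.3 CPM, and it rose in NC10-14 (1.46 ± 0.30, adjusted p = 0.000299) and NC10-12 (1.31 ± 0.29, adjusted p = 0.000965). In NC13-14 p53 was higher by 0.98 ± 0.28 (adjusted p = 0.0197), a call lost without CRY2-ZLD NC13-14 replicate 1 or 4 or unlit replicate 3 or 4 (highest adjusted p = 0.0902). No rise was seen in NC14 (-0.05 ± 0.28, adjusted p = 0.965).

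The level of egr in unlit embryos was 242, 291, 309 and 199 CPM. It was lower after light over NC10-14 by 3.25 ± 0.56 (9.53-fold, adjusted p = 3.18e-05) and over NC10-12 by 1.73 ± 0.47 (adjusted p = 0.00608). Without CRY2-ZLD NC10-14 replicate 1 the first was -4.15, and without the 5 libraries the second was -1.27 (adjusted p = 0.0571). In NC13-14 every lit embryo was below every unlit one without passing (-1.06 ± 0.46, adjusted p = 0.139). Diap1, at 75.5, 57.4, 75.2 and 80.8 CPM in unlit embryos, fell in NC10-14 (-1.09 ± 0.29, adjusted p = 0.00377). In NC14 it was higher in all 4 lit embryos but did not pass (0.88 ± 0.27, adjusted p = 0.0602). For grim, unlit embryos had 8, 1, 1 and 2 reads, and no lit group passed the test against them.

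Of the 8 genes, 7 were called against unlit embryos in NC10-14 (37.4% of all genes), 4 in NC10-12 (28.1%), 5 in NC13-14 (13.1%) and 2 in NC14 (3.7%). Unlit CRY2-ZLD embryos also differed from lit wild type, with NC10-14 and NC13-14 averaged. There 2 of the 8 were called beside 31.6% of all genes: p53 was lower by 0.86 ± 0.26 (adjusted p = 0.0123) and Xrp1 higher by 1.29 ± 0.39 (adjusted p = 0.0125). For p53, unlit embryos (10.3 to 20.2 CPM) overlapped wild type NC13-14 (14.1 to 30.2 CPM) but not NC10-14 (34.2 to 43.7 CPM). For Xrp1, unlit embryos (6.98 to 15.8 CPM) overlapped wild type NC10-14 (4.64 to 7.22 CPM) but not NC13-14 (2.91 to 3.99 CPM). The call for p53 was lost without unlit replicate 4 (-0.70, adjusted p = 0.0636), and that for Xrp1 without unlit replicate 3 (1.09, adjusted p = 0.0615). Since those wild-type embryos were lit, genotype and light differ together in this comparison and cannot be told apart.

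Ordered by mean level over the 9 groups, hid ran from CRY2-ZLD NC13-14 down to wild type NC14, and only the step between CRY2-ZLD NC10-12 and unlit CRY2-ZLD separated neighbouring groups without overlap. For egr the corresponding step was between wild type NC13-14 and wild type NC10-12, the 2 highest groups. For Xrp1 it was between wild type NC10-14 and wild type NC13-14, whose means were 6.10 ± 1.32 (SD, n = 3) and 3.59 ± 0.471 (SD, n = 4) CPM. In the orders of rpr, skl, grim, p53 and Diap1 every pair of neighbouring groups overlapped.

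Embryos of one group differed in a shared way. Among the 3 CRY2-ZLD embryos lit over NC10-14, replicate 1 was the highest, replicate 2 was next and replicate 4 the lowest for hid, rpr, grim, skl, Xrp1 and egr. The highest exceeded the lowest 13.3-fold for hid, 8.27-fold for rpr, 4.77-fold for skl and 4.41-fold for Xrp1. Over the same embryos p53 differed 1.07-fold and Diap1 1.21-fold. Their maternal marker sums were 3052, 3521 and 5319 CPM, so in this group the embryo lowest in the activators held the most maternal RNA. Other groups differed. In wild type NC10-14, replicate 4 was lowest both in summed activators (17.8 CPM per kb) and in maternal markers (2678 CPM). In CRY2-ZLD NC10-12, replicate 3 was highest in both (165 CPM per kb and 3856 CPM). The library of CRY2-ZLD NC10-14 replicate 4 also had 1.54% of its reads from mitochondrial large ribosomal RNA, against 7.18% and 7.28% in replicates 1 and 2. This split ran through all NC10-14, NC13-14 and unlit libraries. Their 8 libraries of replicates 3 and 4 had 0.58% to 3.07%, and their 10 of replicates 1 and 2 had 6.03% to 7.77%. The part of maternal RNA or of this split in the activator levels was not tested. When a term for the split was added to the model, 78 of 82 differences of single genes kept direction and side of the threshold. Of the rest, 3 lost and 1 gained a call. Among CRY2-ZLD embryos lit over NC13-14, replicate 3 was highest for hid, rpr, grim, Xrp1 and egr. Replicate 4 was lowest for hid there too, and in unlit CRY2-ZLD and wild type NC10-14 and NC13-14. The same held for rpr and Xrp1 in each of these groups except wild type NC13-14. A low replicate 4 was therefore not particular to one genotype or light window.

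Across the 34 libraries, which include the differences between groups and share their depth scaling, the log2 levels of hid and rpr had a Pearson r of 0.89 (Spearman 0.89). The other pairs among hid, rpr, grim and skl had Pearson r from 0.63 to 0.85. Xrp1 correlated at 0.81 with hid and 0.79 with rpr, while p53 correlated at 0.36 with hid and 0.50 with rpr. For egr and Diap1 it was 0.56.

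Among all other tested genes, the RNA most like hid over the 34 libraries was toy (r = 0.91), a Pax6 gene of eye and head development. Its group means were 17.8 to 33.9 CPM in the lit CRY2-ZLD groups and 1.80 to 3.02 CPM elsewhere. It was followed by rpr itself and by dac, another gene of eye development (0.88). The homeobox gene Ptx1 was close to rpr and skl (0.86 for each), with toy at 0.86 and 0.87. Those nearest to p53 were CG7246 (0.96), Eaf (0.96), whose product is known as an elongation factor partner, and hng2 (0.95). Xrp1 was closest to GILT3 (0.88), Cyp4e2 (0.88) and CG2921 (0.87), and egr to wda (0.97), CG15628 (0.95) and Sr-CII (0.95). No gene came as near to Diap1, for which Traf4 (0.74), phyl (0.71) and neur (0.70) led. Beside hid and rpr, the gene most like grim was rgr (0.81).

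Genes of the wider pathways were counted as called between genotypes in any of the 4 windows, a rule by which 24.4% of all tested genes were higher and 23.5% lower. The lists were chosen with earlier results of these data known, so their counts are no test of enrichment. Of 16 genes of caspases, the apoptosome and their regulators, all tested, 1 was higher in any window and 6 were lower. Their median log2 difference ran from -0.28 to 0.01. The list includes genes such as Diap2, Bruce, Buffy and AIF, so its counts do not describe a single step of the pathway. The gene higher was Dredd, an initiator caspase of immune signalling, in NC10-12 (1.41 ± 0.33) and NC13-14 (1.42 ± 0.34). Dredd was also higher in unlit CRY2-ZLD embryos against wild type (0.79, adjusted p = 0.0348), and it was called between lit and unlit embryos in none of the 4 windows. Drep1, which encodes an inhibitor of the apoptotic nuclease, was lower in 4 of 4 windows (-2.82 to -3.37), but also in unlit CRY2-ZLD embryos against wild type (-3.87, adjusted p = 7.65e-09), and not called between lit and unlit. AIF, a mitochondrial flavoprotein gene linked to death, was lower in 4 of 4 windows (-0.74 to -1.47) and did not differ beyond the test in unlit embryos (-0.08, adjusted p = 0.795). HtrA2, a mitochondrial protease gene, was lower in NC10-12 (-0.66) and NC13-14 (-0.79).

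Of 22 genes of the Eiger and JNK pathway, 19 were tested, 7 were higher in any window and 4 were lower, beside 24.4% and 23.5% of all genes. Tak1, the JNK kinase kinase kinase gene, was higher in 4 of 4 windows (1.91 to 3.09) and also in unlit CRY2-ZLD embryos (2.13, adjusted p = 3.55e-10). Tab2, encoding its partner, rose in NC10-14 (2.57) and NC10-12 (1.72). Jra, the fly Jun gene, fell in NC10-14 (-1.63), NC10-12 (-1.91) and NC13-14 (-1.22), as did the adaptor gene Traf4 (-3.60, -2.30 and -1.64).

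The 23 genes of the DNA damage checkpoint and repair, all tested, held 8 that were higher and 6 that were lower in any window, again beside 24.4% and 23.5% of all genes. RnrL, the large subunit of ribonucleotide reductase, rose in 3 windows (1.01, 1.38 and 0.75, not NC14), and the nuclease gene mre11 rose in NC10-12, NC13-14 and NC14 (1.03, 0.86 and 0.60). RnrS, the small subunit, fell in NC10-12 (-2.27) but was higher in unlit CRY2-ZLD embryos (1.25, adjusted p = 0.00667), and lok, the Chk2 kinase gene upstream of p53, fell in NC10-12 (-1.42) and NC13-14 (-0.89). Of 19 partners of Xrp1 and stress response genes, 18 were tested, 6 were higher and 5 lower in any window, against the same shares of all genes. The stress kinase gene Gcn2 (0.96 to 1.65) and crc, the fly ATF4 (0.61 to 0.68), rose in NC10-12, NC13-14 and NC14. In unlit CRY2-ZLD embryos against wild type, Gcn2 was lower (-0.99, adjusted p = 0.00931) and crc higher (0.42, adjusted p = 0.0426), and crc was called between lit and unlit embryos in none of the 4 windows. Thor, a translation repressor gene, rose in NC13-14 (2.09) and NC14 (3.52), and Keap1, a regulator of the oxidative stress response, fell in NC10-14, NC10-12 and NC13-14 (-1.12 to -1.75).

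Among 10 transcription factors known to act on death genes, 3 were higher and 4 lower in any window, against those shares. Dfd, the Hox gene known to activate rpr in the head, was almost absent from lit CRY2-ZLD embryos, at 0.367 to 1.31 CPM in group means. It fell in NC10-12 (-3.42), NC13-14 (-4.36) and NC14 (-5.53). In unlit CRY2-ZLD embryos it was above the log2 average of wild type NC10-14 and NC13-14 (1.45, adjusted p = 0.00443), at means of 12.4 and 8.64 CPM. The homeobox gene hth fell in 4 of 4 windows (-1.36 to -4.28). It was higher in unlit embryos against the same average (1.17, adjusted p = 0.0412), at means of 375 and 263 CPM. Unlit embryos were not compared with each wild-type group singly, so these values do not show a rise over both. The ETS factor gene pnt rose in 4 of 4 (1.90 to 2.35), and also in unlit CRY2-ZLD embryos (2.27, adjusted p = 1.17e-06). EcR, the ecdysone receptor gene, rose in NC10-12 (1.505) and NC14 (1.39) and was lower in unlit embryos (-1.36, adjusted p = 0.000122).

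Markers of the blastoderm were present in every group, but they changed with genotype themselves, so their presence is no test of tissue or stage. Of 12 such markers, 11, 1, 10 and 6 were lower and 0, 2, 0 and 0 higher between genotypes in NC10-14, NC10-12, NC13-14 and NC14. The summed level of the 12 was 675 to 1862 CPM in CRY2-ZLD embryos lit over NC10-14, NC13-14 or NC14, and 3641 to 16065 CPM in wild type. CRY2-ZLD embryos lit over NC10-12 had 5170 to 8740 CPM, beside 5921 to 7909 CPM in wild type of that window, and unlit embryos had 4021 to 7127 CPM. Markers of hemocytes, which engulf dying cells, summed over 12 genes to 21.7 to 118 CPM in lit CRY2-ZLD embryos, 78.7 to 285 CPM in unlit embryos and 39.9 to 700 CPM in wild type, with NimC1 and He at 0 throughout. Single markers went both ways: of 10 tested, 2, 3, 3 and 0 were higher and 2, 3, 1 and 1 lower between genotypes in NC10-14, NC10-12, NC13-14 and NC14. Markers of differentiated later embryos summed to 373 to 768 CPM in lit CRY2-ZLD and 555 to 1341 CPM in wild type. Of 9 tested members, 2, 2, 2 and 0 were higher and 0, 1, 0 and 1 lower in the same order, with median log2 differences of 1.24, -0.04, 1.69 and 1.17. Pole cell markers summed to 235 to 728 CPM in lit CRY2-ZLD embryos and 145 to 340 CPM in wild type. The 728 CPM was in CRY2-ZLD NC10-14 replicate 4, the embryo with the highest maternal marker sum, and osk is in both lists. Of 7 pole cell markers tested, 1, 2, 1 and 1 were higher and 0, 1, 0 and 0 lower in the same order. Follicle cell markers stayed at or under 4.46 CPM. The part of these cell types in the levels of the 8 genes was not tested.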

How the data were processed

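Poly(A) RNA libraries of 34 single embryos in 9 groups were read from a table of raw gene counts deposited by the authors. The counts were made with featureCounts 1.5.3, per the file headers. The submitters' processing notes also name Trimmomatic 0.36, HISAT2 2.1.0, DESeq2 1.14.1 and the dm6 build. Gene symbols came from the Ensembl annotation of that build and matched 17360 of 17491 identifiers. The command in the header sets no strand option, so reads in exons shared with antisense genes stay unassigned, which can lower grim, p53 and Diap1.

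In R 4.3.3, edgeR 4.0.16 scaled libraries by TMM, kept 9519 genes (filterByExpr, minimum count 10; 99.98% of reads) and fitted 1 model of 9 group means over all 34 libraries. Contrasts used the quasi-likelihood test with Benjamini-Hochberg adjustment over all 9519 genes at 0.05. CPM are TMM-scaled. Depth was 4382299 to 41210334 reads per library. The model was tested on simulated data. DESeq2 1.42.0, limma-voom (limma 3.58.1), other scalings, filters, sample sets and the replicate number as a block were alternatives.

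The 8 genes and the gene lists were chosen with earlier results of these data known. The text names the 8 genes in every comparison, for each the 3 other genes with the highest Pearson correlation of log2 CPM (prior count 2), and from each list up to 4 genes with the smallest p over the genotype comparisons. Replicate numbers did not pair the embryos. P-values measure the spread between single embryos. No sequences are shown, since those of these genes were not used here.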

Additional observations from a re-analysis of the deposited data

Results flagged for a closer look

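In 5 of 56 sets of 4 embryos, counting each gene in each group of 4, the highest or lowest embryo was far from the other 3 by Dixon's test at 95%, a test that flags about 1 in 20 sets by chance. CRY2-ZLD NC10-12 replicate 3 had 116 CPM of skl, above the other 3 embryos at 16.2 to 27.1 CPM. CRY2-ZLD NC13-14 replicate 4 had 151 CPM of hid, below the others at 328 to 356 CPM. CRY2-ZLD NC13-14 replicate 3 had 187 CPM of egr, above 98.9 to 113 CPM. Wild type NC13-14 replicate 1 had 11.6 CPM of rpr, above 6.15 to 6.47 CPM. CRY2-ZLD NC10-12 replicate 4 had 0.0851 CPM of grim, from 2 reads, below 0.382 to 0.421 CPM.

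The effect of the genotype differed between light windows, by a test of the difference itself, for p53 and Diap1. For p53 the effect in NC10-14 minus that in NC10-12 was -1.52 on the log2 scale. For Diap1 the effect in NC10-12 minus that in NC14 was -1.66.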

How the results depend on the processing

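Outside the fits that left out 1 library, 82 differences of single genes were recomputed in 11 ways, giving 883 values. Of these 800 kept direction and side of the threshold, 48 lost and 27 gained a call, and 8 turned direction, none of them called. The cause of a change was not tested, unless the text says otherwise. The 8 were p53 in lit NC14 against unlit (0.013 with DESeq2's size factors and 0.012 with its Wald test), grim in lit NC10-14 against unlit (0.35 with ribosomal protein genes as the scale), Diap1 in lit NC13-14 against unlit (-0.000793 with no filter and -0.00223 with only the compared groups fitted), grim in wild type NC10-14 against NC13-14 (0.13 with the replicate block, 0.19 without the 5 libraries that stand apart) and rpr in unlit against wild type (0.00243 without those 5).

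Of the 8 genes, the number called moved by more than 1.5 times in 7 comparisons. In lit NC14 against unlit it was 4 with DESeq2's size factors, with DESeq2 and without the 5 libraries, and 1 with limma-voom and at a threshold of 0.01. In unlit against wild type it was 1 on the ribosomal protein scale and with limma-voom, 4 with only the compared groups and without the 5 libraries, and 0 at 0.01. For the genotype effect in NC10-14 minus NC10-12 it was 0 on the ribosomal protein scale and at 0.01, and 2 with DESeq2 and with a term for replicates 1 and 2 against 3 and 4 of the NC10-14, NC13-14 and unlit groups. For NC10-12 minus NC14 it was 0 on the ribosomal protein scale, at 0.01 and without the 5 libraries, and 2 with a mean of at least 5 CPM, with DESeq2, with the replicate block and with that term. It was 0 for wild type NC10-14 against NC13-14 with no filter and at 0.01, 2 for the genotypes in NC10-14 with only those groups fitted, and 2 for lit NC10-12 against unlit without the 5 libraries. A stricter threshold calls fewer genes by its construction.

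On the ribosomal protein scale the median of all genes between genotypes moved by 0.26, 0.21, 0.21 and 0.45 in NC10-14, NC10-12, NC13-14 and NC14. Of the genes called, the share that was lower then went from 49.2%, 49.3%, 51.8% and 55.3% to 36.6%, 33.7%, 37.9% and 24.0%.

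With 1 library left out in turn, the log2 difference ranged from -0.36 to 2.61 for grim between genotypes in NC10-14, from -1.60 to 0.98 for grim in lit NC10-14 against unlit, from -0.064 to 0.14 for Diap1 in lit NC13-14 against unlit and from -0.24 to 0.14 for p53 in lit NC14 against unlit. It ranged from -0.35 to 0.17 for rpr in unlit against wild type, and from -0.071 to 0.31 for Diap1 and -1.58 to 0.64 for grim in wild type NC10-14 against NC13-14. None of these 7 was called with all libraries. The number of the 8 genes called ranged from 1 to 4 in lit NC14 against unlit, 1 to 3 in unlit against wild type, 0 to 2 in NC10-14 minus NC10-12, 1 to 2 in NC10-12 minus NC14, 0 to 1 in NC10-14 minus NC13-14 and 0 to 1 in wild type NC10-14 against NC13-14.

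Embryos of equal replicate number deviated together at over 0.1 in 5 of 15 pairs (correlations from -0.11 to 0.28), and in 5 the own number was the highest, so the numbers were not taken as pairing the embryos. With the replicate number as a block, 4, 7, 6 and 6 of the 8 genes were called between genotypes in NC10-14, NC10-12, NC13-14 and NC14, and 7, 4, 5 and 3 against unlit embryos. The low counts of grim, at most 60 reads per library, limit what can be said of it.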
